A study of Mus musculus with 9 samples.

Results

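The interferon response genes are 46 named mouse genes of the interferon signalling and interferon-induced programme, and 45 of them were found by symbol among the 13795 gene rows of the deposited table. Mx1 was not analysed here. Transcripts of heart tissue from C57BL/6 mice, an inbred strain, were sequenced in 9 samples. Of these, 4 came from the control group, labelled vehicle, and 5 from mice that received oxaliplatin, a platinum-based anticancer agent, at 10 mg/kg. All hearts were collected after 8 weeks, and only RNA with an integrity number above 8 was sequenced. No genetic change is labelled, and the age of the animals is not given in the sources used here. The labels do not say that the samples are separate animals, so the p-values speak only to the spread among these 9 samples, part or all of which may be technical.

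Interferons are secreted proteins that cells release when receptors inside them sense foreign or misplaced nucleic acid. Type I interferons signal through a receptor on nearly every cell, and a complex that holds Stat2 and Irf9 then binds interferon-stimulated response elements in the promoters of antiviral genes. Interferon gamma, made mainly by lymphocytes, signals through its own receptor to gamma-activated sites in promoters, and it induces large GTPases that attack intracellular parasites. The programmes overlap, and many genes answer both. In the heart, endothelial cells, macrophages, fibroblasts and cardiomyocytes can all carry the response.

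The members fall into roles: 4 transcription factors, 8 nucleic acid sensors and related proteins, 3 genes of the Isg15 system, 12 antiviral effectors of the Ifit, Oas and Mx families and their like (11 measured), 4 membrane proteins, 7 GTPases induced by interferon gamma, and 8 other induced genes. For the contrast of type I with interferon gamma targets, Isg15, Ifit1, Ifit2, Ifit3, Ifit3b, Oas1a, Oas2 and Oasl2 form a type I subset of 8 genes, and Gbp2, Gbp3, Gbp7, Irgm1, Irgm2, Igtp and Iigp1 form an interferon gamma subset of 7.

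Promoter stretches of 4 type I subset genes and 3 interferon gamma subset genes are shown because they hold letters of the elements that interferon signalling is known to act through. They were taken from RefSeq on GRCm38.p6, run 5′ to 3′ on the gene's strand, and lie before the annotated start. Capitals mark the letters GAAANNGAAA on either strand, as in an interferon-stimulated response element, and TTCNNNGAA on either strand, as in a gamma-activated site. The stretches lie at chr4:156200860-156200911, minus strand (Isg15), chr19:34640770-34640828, plus strand (Ifit1), chr19:34583358-34583431, plus strand (Ifit3), chr19:34607754-34607827, plus strand (Ifit3b), chr11:48871421-48871465, minus strand (Irgm1), chr11:58214887-58214937, plus strand (Irgm2) and chr11:58199496-58199546, plus strand (Igtp).
Isg15: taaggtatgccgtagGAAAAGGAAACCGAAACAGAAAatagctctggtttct
Ifit1: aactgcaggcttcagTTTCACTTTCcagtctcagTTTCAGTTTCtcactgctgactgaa
Ifit3: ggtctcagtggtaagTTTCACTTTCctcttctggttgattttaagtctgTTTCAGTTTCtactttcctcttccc
Ifit3b: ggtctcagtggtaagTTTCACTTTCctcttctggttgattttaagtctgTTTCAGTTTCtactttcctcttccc
Irgm1: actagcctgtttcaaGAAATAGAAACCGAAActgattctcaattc
Irgm2: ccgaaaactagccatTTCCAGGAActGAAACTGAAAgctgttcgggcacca
Igtp: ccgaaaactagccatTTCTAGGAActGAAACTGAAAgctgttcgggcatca

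The Isg15 stretch holds 3 overlapping matches to the response element, and those of Ifit1, Ifit3, Ifit3b and Irgm1 hold 2 each. Irgm2 and Igtp hold 1 match to each element. The Ifit3 and Ifit3b stretches of 74 bases are identical. Over the windows from 250 bases before to 50 bases after the start, 33 of the 46 members had an entry. Of these, 20 held a response element (60.6%), against 3.99% of all 27025 genes with an entry, and 11 held a gamma-activated site (33.3%), against 9.55%. Some matches of a gene overlap one another, and a gene with several starts counts once if any window matches. The response element lay in 6 of 11 members that rose in oxaliplatin samples and in 14 of 22 that did not pass the test. It lay in 6 of 6 interferon gamma subset genes and in 5 of 7 type I subset genes with an entry. A match is a description of letters, not a binding site. Irf7, Oasl2, Samd9l and Xaf1, which rose, had no match to either element in these windows. Neither had Cmpk2, Ifi44, Irf9, Sp100 and Trim25, which did not pass.

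In hearts of the oxaliplatin group, 15 of the 45 members rose, and none fell. Irf7, the transcription factor that amplifies the type I response, rose most, followed by Samd9l, Ifit3 and Ifit3b. The other members that rose were Ifi204, Ifit1, Ifit2, Oasl2 and Usp18, the membrane proteins Ifitm2, Ifitm3 and Ly6e, the GTPase Irgm1, and Xaf1 and Ifi27. Values are normalized counts, and a difference is on the scale of log2(normalized count + 1), oxaliplatin minus vehicle, with its standard error (SE). A gene rose or fell where limma gave an adjusted p under 0.05. Over all 13788 genes tested, 9.23% rose and 5.03% fell, against 15 and 0 of 45 members. At an unadjusted p under 0.05, 27 members were higher and 0 lower, against 16.0% of all genes higher. The difference was positive in 40 members and negative in Irf1, Ifi203, Rsad2, Iigp1 and Parp14, none of which passed. Its median was 0.45 over the members and -0.02 over all genes. In 12 members every oxaliplatin sample lay above every vehicle sample, against 8.99% of all genes, and in 0 members every oxaliplatin sample lay below, against 5.93%. The deposited table lacks genes of low value, since each row reaches at least 40.6 in some sample, so a member could have entered it through the group in which it was high. Zbp1, among the 12 without overlap, did so, as all its vehicle values lay below 40.6. In bulk tissue, a change in the number of cells that carry these transcripts and a change in RNA per cell cannot be told apart.

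**Figure D1:**
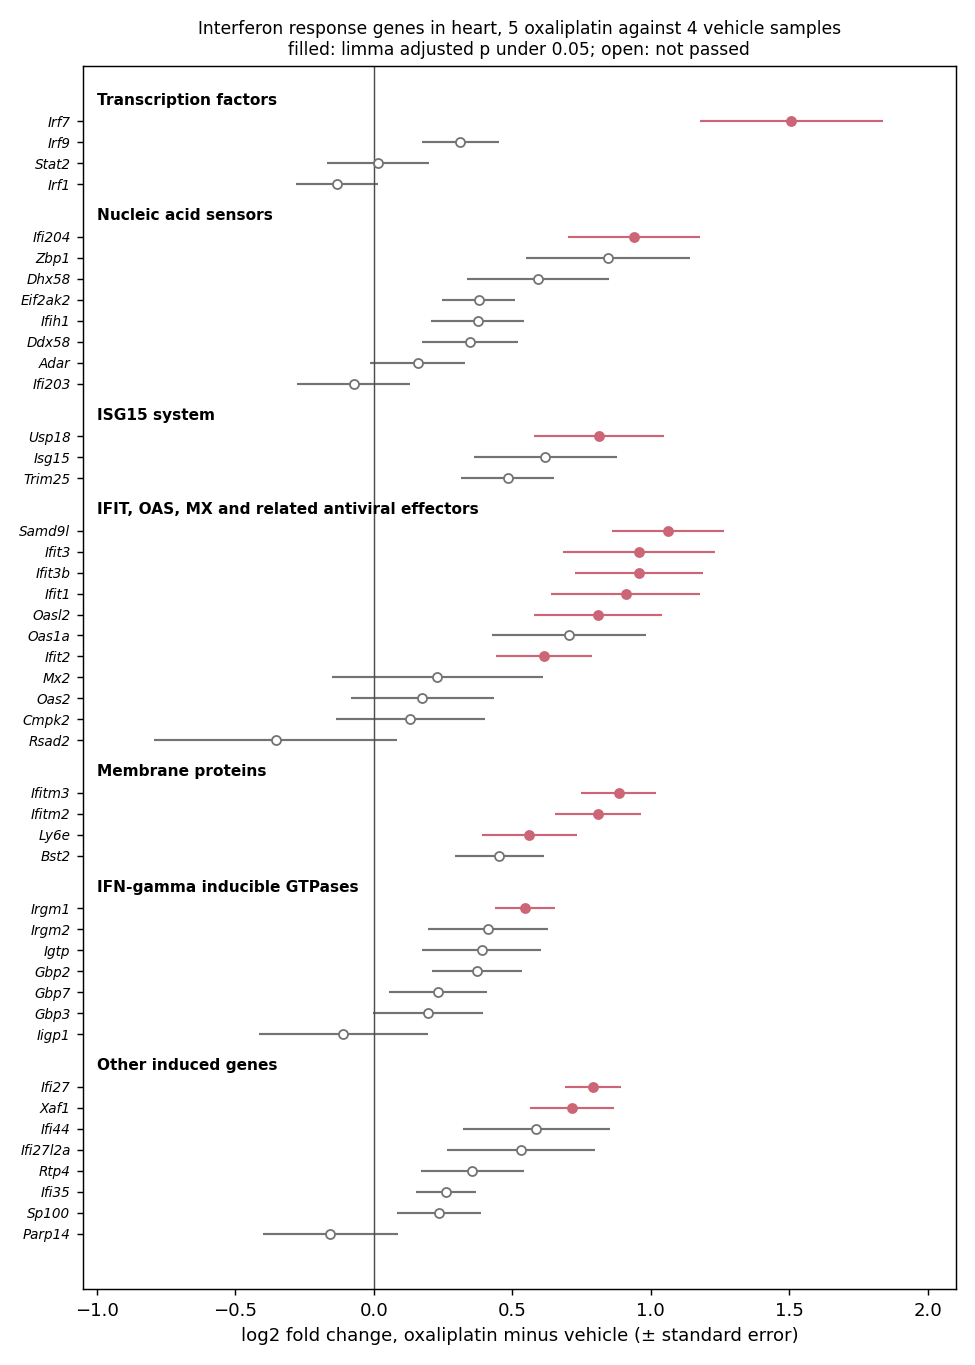
Difference between 5 oxaliplatin and 4 vehicle samples in log2(normalized count + 1) for 45 interferon response genes by role, with bars of 1 standard error; filled points passed the limma test and open points did not. The 15 filled points all lie to the right of 0, from Irgm1 at 0.54 to Irf7 at 1.51.

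The depth behind each sample was an estimated 28.5 M to 36.2 M reads, of which mitochondrial transcripts held a share of 18.1% to 24.1%. Several marker lists moved with the groups, and they stand beside every result that follows. Of 10 endothelial markers 5 rose and 0 fell, with a log2 difference of 1.33 (SE 0.14, adjusted p = 0.000461) for Pecam1, and none was at 0 in any sample. Their summed level ran from 34222 to 42306 normalized counts in vehicle samples and from 48712 to 89019 in oxaliplatin samples. Fabp4 was the largest part of this sum, at 14639 to 22620 in vehicle and 20236 to 49631 in oxaliplatin samples. The 5 endothelial markers that did not pass were Cdh5, Kdr, Tie1, Emcn and Egfl7. Of 12 macrophage markers 4 rose (Cd68, Lyve1, F13a1 and Mertk) and Cd163 fell, none was at 0, and their summed level ran from 5289 to 6998 in vehicle and from 5084 to 10666 in oxaliplatin samples. All 4 measured B cell markers fell, among them Cd79a, and their summed level ran from 336 to 684 in vehicle and from 51.4 to 218 in oxaliplatin samples. No T and NK cell marker among the 1 of 11 measured (Cd4) passed, and the leukocyte marker Ptprc differed by -0.47 (SE 0.31, adjusted p = 0.34). Of 10 cardiomyocyte markers, Myh6 and Myl2 fell. The 1 measured dendritic cell marker, Clec9a, rose by 1.13 (SE 0.33, adjusted p = 0.0378), and of 8 smooth muscle and pericyte markers Pdgfrb rose by 0.62 (SE 0.16, adjusted p = 0.0198). Of 8 erythroid markers none passed, 7 were lower at an unadjusted p under 0.05, and the median log2 difference was -2.79. The mean levels of the endothelial, B cell, cardiomyocyte and dendritic cell lists did not overlap between the groups, so these levels and the groups cannot be told apart. Each row of the table reaches at least 40.6 in some sample. Clec9a, which alone makes up the dendritic cell list, reached this only in oxaliplatin samples, and Cd79a and Cd79b only in vehicle samples. The lack of overlap in these genes is thus favoured by which rows the table holds. A fit with the endothelial level as a covariate, added once the data had been seen, passed 0 members and 1 of all genes tested. The part of the other marker lists in the results was not tested beyond fits with the macrophage and erythroid levels as covariates, which passed 15 and 13 members.

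Among the transcription factors, Irf7 rose and Irf9, Irf1 and Stat2 did not pass. Irf7 read 408, 326, 519.5 and 571 normalized counts in vehicle samples 1 to 4 and 1324, 647, 1838, 992 and 2104 in oxaliplatin samples 1 to 5. All 5 oxaliplatin samples lay above the vehicle samples, with samples 5 and 3 highest and sample 2 nearest to vehicle. Its mean was 456 ± 110.2 (SD, n = 4) in vehicle and 1381 ± 597 (SD, n = 5) in oxaliplatin samples, a log2 difference of 1.51 (SE 0.33, adjusted p = 0.0148). Irf9, the DNA-binding part of the complex that binds the response element, differed by 0.31 (SE 0.14, adjusted p = 0.159). Stat2, the part of that complex that activates transcription, differed by 0.01 (SE 0.19, adjusted p = 0.973). Irf1, a factor induced strongly by interferon gamma, differed by -0.13 (SE 0.15, adjusted p = 0.592). The rise of Irf7 was thus not shared by the other factors at this threshold, though no test of the difference between factors was made.

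Of the 8 sensors and related proteins only Ifi204 rose. Ifi204 belongs to the Ifi200 family of DNA-binding proteins. It read 69.8, 89.6, 103 and 132 in vehicle samples and 159, 128, 269, 219 and 180.1 in oxaliplatin samples. Oxaliplatin sample 2 lay below vehicle sample 4, and the other oxaliplatin samples lay above every vehicle sample. The log2 difference was 0.94 (SE 0.24, adjusted p = 0.0199). It passed in 5 of the 9 fits that each left out 1 sample, and its adjusted p was above the threshold, at most 0.0601, without vehicle 1, vehicle 2, oxaliplatin 3 or oxaliplatin 4. Of 50-base stretches of its transcripts, 20.0% occur in another gene, most often Ifi211, so reads of these genes may be split uncertainly. Zbp1, a sensor of left-handed nucleic acid that can start necroptosis, read 19.1 to 30.3 in vehicle and 34.1 to 63.9 in oxaliplatin samples, without overlap, and missed the threshold (log2 difference 0.85, SE 0.29, adjusted p = 0.0727). Its vehicle values all lay below 40.6, the lowest maximum of any row. Zbp1 is thus in the table only through oxaliplatin samples, which favours a lack of overlap. Eif2ak2, the kinase PKR that halts translation on double-stranded RNA, ran from 195 to 231 and from 237 to 289 and missed the threshold as well (0.38, SE 0.13, adjusted p = 0.0727). The cytosolic RNA sensors Ifih1 (MDA5), Ddx58 (RIG-I) and Dhx58 (LGP2) differed by 0.38, 0.35 and 0.59 and did not pass. Adar, which edits double-stranded RNA, differed by 0.16, and Ifi203 by -0.07.

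Isg15 is a ubiquitin-like protein that is joined to other proteins during the response, and Usp18 is the protease that removes it and also damps signalling at the type I receptor. Usp18 rose. It read 226, 189.9, 313 and 334 in vehicle samples and 338, 336, 681, 451 and 562 in oxaliplatin samples. The groups did not overlap, but oxaliplatin samples 1 and 2 lay just above vehicle sample 4. The log2 difference was 0.81 (SE 0.23, adjusted p = 0.0364). Usp18 passed in 3 of 9 fits that left out 1 sample, those without vehicle 4, oxaliplatin 1 or oxaliplatin 2, and its adjusted p was 0.0554 to 0.109 in the others. Isg15 itself, whose promoter stretch holds the 3 overlapping matches, read 167, 136, 218 and 167 in vehicle and 215, 168, 449, 224 and 335 in oxaliplatin samples. Oxaliplatin samples 1 and 2 lay within the vehicle range, and the difference of 0.62 (SE 0.26, adjusted p = 0.131) did not pass. Trim25, a ubiquitin ligase that helps RIG-I signal, differed by 0.48 (SE 0.17, adjusted p = 0.0708).

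Of 11 measured antiviral effectors 6 rose, Ifit1, Ifit2, Ifit3, Ifit3b, Oasl2 and Samd9l, and the group's median log2 difference was 0.70. Samd9l, a restriction factor against poxviruses that also restrains cell growth, read 192, 143, 183 and 218 in vehicle samples and 286, 293, 526, 379 and 481 in oxaliplatin samples. The groups did not overlap, and oxaliplatin samples 3 and 5 were highest. Its log2 difference was 1.06 (SE 0.20, adjusted p = 0.00505).

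The Ifit proteins bind viral RNA and block its translation. Ifit3b read 139.7, 118, 185 and 181 in vehicle samples and 232, 266, 479.6, 225 and 354 in oxaliplatin samples, without overlap (log2 difference 0.96, SE 0.23, adjusted p = 0.0156). Ifit3 read 302, 272, 390.4 and 508 against 389.8, 624, 1061, 730.3 and 861 (0.96, SE 0.27, adjusted p = 0.0399). Oxaliplatin sample 1 lay below vehicle samples 3 and 4 in Ifit3 and above both in Ifit3b. The pair shares 51.2% of the 50-base stretches of Ifit3 and 45.0% of those of Ifit3b with other genes, mostly each other, so their values are uncertain as separate genes and are not independent of each other. Ifit1 read 193, 158, 262 and 268 in vehicle and 259.7, 397, 709, 317 and 469 in oxaliplatin samples (0.91, SE 0.27, adjusted p = 0.0416). Ifit2 read 307, 295, 297 and 291 in vehicle and 403, 401, 653, 345 and 542 in oxaliplatin samples (0.62, SE 0.17, adjusted p = 0.0320). The vehicle samples of Ifit2 spanned only 291 to 307, below all oxaliplatin samples, while in Ifit1 oxaliplatin sample 1 lay among the vehicle samples. In every one of these 4 genes oxaliplatin sample 3 was the highest. Among the 9 fits that left out 1 sample, Ifit3b lost its call only without vehicle 2 (adjusted p = 0.0569). In those fits Ifit1 kept it only without oxaliplatin 1 or oxaliplatin 4 (0.0548 to 0.121 in the other fits), Ifit2 only without oxaliplatin 1, 2 or 4 (0.0602 to 0.0793), and Ifit3 only without vehicle 4, oxaliplatin 1 or oxaliplatin 2 (0.0699 to 0.114).

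Oasl2, a relative of the enzymes that activate RNase L, read 283, 178, 253 and 421 in vehicle samples and 345, 437, 609.7, 463 and 565 in oxaliplatin samples. Oxaliplatin sample 1 lay below vehicle sample 4, and the other 4 lay above every vehicle sample. Its log2 difference was 0.81 (SE 0.23, adjusted p = 0.0345), and among those fits it kept its call only without vehicle 4, oxaliplatin 1 or oxaliplatin 2 (0.0639 to 0.0989 in the other fits). Oas1a differed by 0.70 (SE 0.28, adjusted p = 0.11), and 57.6% of its 50-base stretches occur in other genes, chiefly Oas1g. Oas2 differed by 0.17, Mx2 by 0.23 and Cmpk2, a mitochondrial nucleotide kinase next to Rsad2 in the genome, by 0.13. None of these passed. Rsad2 (viperin), an enzyme that makes a chain-terminating nucleotide, read 418, 402, 369 and 572 in vehicle and 169.7, 303, 904, 214 and 452 in oxaliplatin samples. Its oxaliplatin samples held both the lowest and the highest values, 5.33-fold apart, and its difference of -0.35 (SE 0.44, adjusted p = 0.638) did not pass.

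Of the 4 membrane proteins, Ifitm2, Ifitm3 and Ly6e rose. Ifitm2 and Ifitm3 block the fusion of viruses with endosomal membranes. Ifitm3 read 4463, 3828, 4138 and 4459.6 in vehicle samples and 7555, 5821, 8709.6, 9003 and 8253 in oxaliplatin samples, with a log2 difference of 0.88 (SE 0.14, adjusted p = 0.00169). Ifitm2 read 4479, 4081, 3988 and 3375 in vehicle samples and 8061, 4944, 6704, 8449 and 7126 in oxaliplatin samples, with a difference of 0.81 (SE 0.15, adjusted p = 0.00503). Neither gene's groups overlapped, and oxaliplatin sample 2 was the lowest of its group in both. Of the 50-base stretches of Ifitm2, 48.5% occur in other genes, so its value is uncertain.

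Ly6e, a lipid-anchored surface protein that limits entry of some viruses, read 5177, 5246, 6122 and 6642 in vehicle samples and 9968, 5616, 9880.5, 8099 and 9945 in oxaliplatin samples. Oxaliplatin sample 2 lay within the vehicle range and the other 4 above it. The difference was 0.56 (SE 0.17, adjusted p = 0.0454), and among the fits that left out 1 sample the call held only without vehicle 4 or oxaliplatin 2 (0.0671 to 0.122 in the other fits). The endothelial marker sum was also lowest of its group in oxaliplatin sample 2, at 48712, while 4 members, among them Igtp and Irgm2, were highest there. Whether marker and member levels are linked was not tested. Bst2 (tetherin), which holds budding virus at the cell surface, differed by 0.45 (SE 0.16, adjusted p = 0.0777).

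Of the 7 GTPases only Irgm1 rose. Irgm1 is a regulator of the immunity-related GTPases that also acts in autophagy. It read 675, 680.3, 679.8 and 577 in vehicle samples and 937, 976, 1077, 824 and 957 in oxaliplatin samples. The groups did not overlap, and the log2 difference was 0.54 (SE 0.11, adjusted p = 0.00638). Its relatives Igtp and Irgm2 did not pass. Igtp (Irgm3) read 619, 552, 643 and 541 in vehicle and 619, 1149.6, 1009, 489 and 769.5 in oxaliplatin samples (0.39, SE 0.21, adjusted p = 0.256). Irgm2 read 491, 360.3, 429 and 493 against 446, 858, 823, 489 and 447 (0.41, SE 0.22, adjusted p = 0.229). In both, oxaliplatin samples 2 and 3 were highest and sample 4 lay within the vehicle range or below it. The effector GTPase Iigp1 differed by -0.11 (SE 0.30, adjusted p = 0.847). The guanylate-binding proteins Gbp2, Gbp3 and Gbp7, which coat and break open pathogen vacuoles, differed by 0.37, 0.20 and 0.23 and did not pass.

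Among the 8 other induced genes Xaf1 and Ifi27 rose. Ifi27, a small mitochondrial protein, had the smallest adjusted p of all members. It read 1022, 1176, 1183 and 1222 in vehicle samples and 1987, 2065, 2185, 1844 and 1871 in oxaliplatin samples. The groups were far apart beside their spread, with means of 1151 ± 88.4 (SD, n = 4) and 1990.5 ± 140.5 (SD, n = 5) and a log2 difference of 0.79 (SE 0.10, adjusted p = 0.000839). Xaf1, which promotes apoptosis by countering XIAP, read 219, 236, 242 and 272 in vehicle samples and 335, 369.9, 492, 346 and 467 in oxaliplatin samples. Its groups did not overlap either, and the difference was 0.72 (SE 0.15, adjusted p = 0.00778). Ifi27l2a, Ifi35, Ifi44, Rtp4 and Sp100 differed by 0.53, 0.26, 0.59, 0.36 and 0.23 and Parp14 by -0.16, and none passed.

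**Figure D2:**
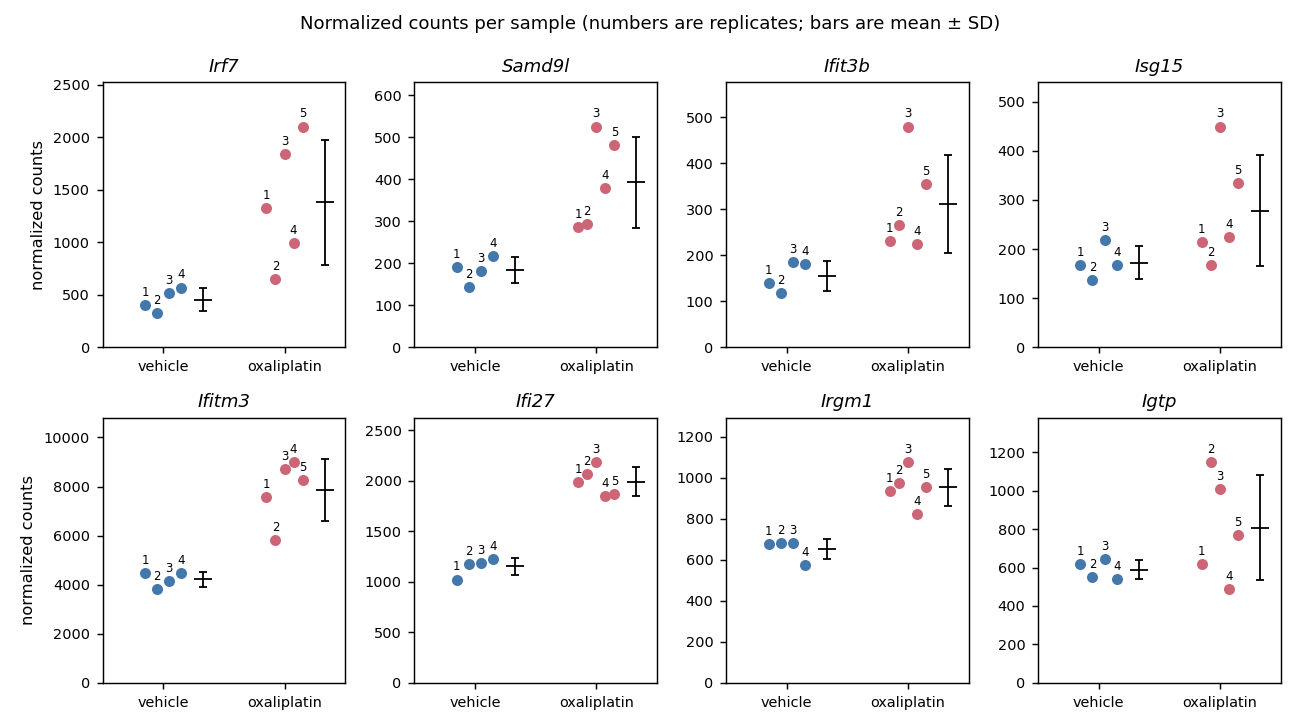
Normalized counts in each sample for 8 members, with vehicle samples in blue, oxaliplatin samples in red, replicate numbers beside the points and bars of mean ± SD. Irf7, Samd9l, Ifit3b, Ifitm3, Ifi27 and Irgm1 show groups that do not overlap, while the ranges of Isg15 and Igtp overlap.

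Of the 15 members that rose, Irf7, Samd9l, Ifitm2, Ifitm3, Irgm1, Xaf1 and Ifi27 passed in all 9 fits that each left out 1 sample. The number of members that rose was 7 without vehicle 2, 8 without vehicle 1 or oxaliplatin 3, 9 without vehicle 3 or oxaliplatin 5, and 11 to 16 in the other 4 fits. Without trend and robust moderation Usp18, Ifit1, Ifit2, Ifit3, Oasl2 and Ly6e lost their calls (adjusted p = 0.0568 to 0.0826). Ifit3, Oasl2 and Ly6e lost them with the erythroid level as a covariate (0.0515 to 0.0876). Usp18, Ifit1, Ifit3 and Oasl2 lost them without vehicle 1, oxaliplatin 2 and oxaliplatin 4, the samples of highest atrial marker level (0.0576 to 0.197). Oxaliplatin 3, kept in that fit, had an atrial level of 1.32, above the other samples kept (-0.88 or lower). Oasl2 also lost its call with equal totals (0.0553).

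The members varied more among oxaliplatin than among vehicle samples. The median coefficient of variation over members was 27.6% in oxaliplatin and 16.5% in vehicle samples, and it was larger in oxaliplatin samples for 35 of 45 members. Over all genes the medians were 18.0% and 16.1%, and the coefficient was larger in oxaliplatin samples for 57.1% of genes. Oxaliplatin sample 3 held the highest value of all 9 samples in 33 of 45 members, against 8.68% of all genes. Among the 5 oxaliplatin samples it was the highest in 36 of 45 members, against 15.4% of all genes. The same sample stood apart in markers: its macrophage level was the highest of the 9 samples, with a sum of 10666 normalized counts, and its erythroid sum of 359844 lay within the vehicle range of 222495 to 572532, against 8329 to 43341 in the other oxaliplatin samples. Its atrial level was 1.32. That of vehicle 1, oxaliplatin 2 and oxaliplatin 4 was 2.73 to 3.59, and that of the other samples -4.20 to -0.88. Whether these markers and the members moved together for 1 reason was not tested. Without this sample the median difference over the members was 0.37 and 8 members rose, while Ifi204, Usp18, Ifit1, Ifit2, Ifit3, Oasl2 and Ly6e lost their calls.

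**Figure D3:**
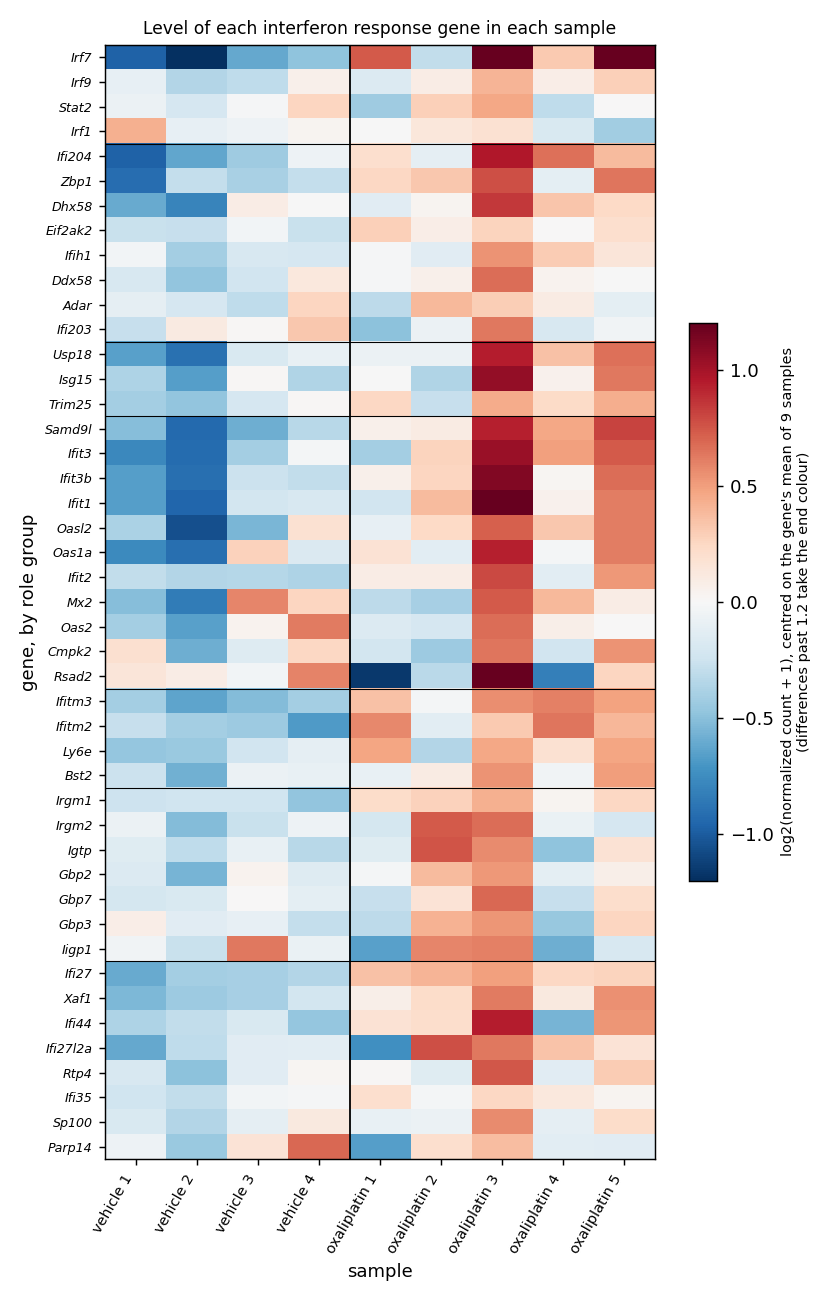
Level of each of 45 members (rows, by role group) in each of 9 samples (columns), as log2(normalized count + 1) centred on the gene's mean, with red above and blue below the mean and values beyond 1.2 in either direction at the end colour. Oxaliplatin sample 3 is the reddest column, holding the highest value in 33 of 45 members.

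The type I and interferon gamma subsets were then set side by side. In the type I subset 5 of 8 genes rose, all 8 differences were positive and the median log2 difference was 0.76. In the interferon gamma subset 1 of 7 genes rose, 6 differences were positive and the median was 0.37. Over all genes tested, 9.23% rose. The type I count was 0 without vehicle 2 and 1 without vehicle 1, vehicle 3, oxaliplatin 3 or oxaliplatin 5. It was 3 to 5 in the other fits that left out 1 sample, and 1 without trend and robust moderation. The interferon gamma count was 1 in each of these fits. Ifit3 and Ifit3b, which are not independent, both count in the type I subset. The difference between the subsets was not tested. Averaged over its genes, each centred on its mean over all samples, the type I level was -0.54, -0.80, -0.18 and -0.08 in vehicle samples and -0.07, 0.07, 0.94, 0.11 and 0.55 in oxaliplatin samples. Oxaliplatin sample 1 stood next to vehicle sample 4, and samples 3 and 5 were the highest. The interferon gamma level was -0.11, -0.31, -0.00 and -0.21 in vehicle samples and -0.20, 0.47, 0.57, -0.28 and 0.08 in oxaliplatin samples. Here samples 2 and 3 were the highest, and samples 1 and 4 lay within the vehicle range. Oxaliplatin sample 2 was thus among the highest of its group in the interferon gamma level and not in the type I level, and sample 5 the reverse. Without oxaliplatin sample 3 the medians were 0.63 for the type I and 0.28 for the interferon gamma subset.

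**Figure D4:**
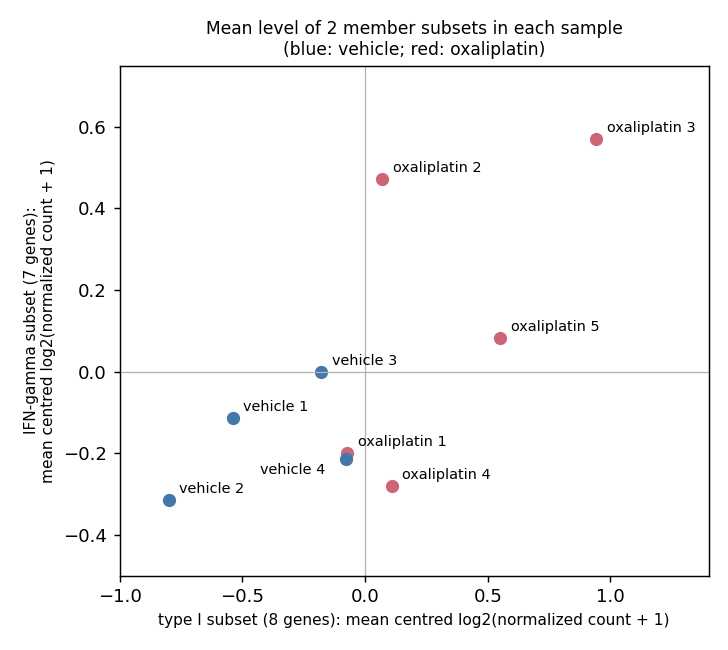
Mean centred log2(normalized count + 1) of the 8 type I subset genes (x axis) and the 7 interferon gamma subset genes (y axis) in each sample. Oxaliplatin sample 3 is high in both (0.94 and 0.57), sample 2 mainly in the interferon gamma subset (0.07 and 0.47) and sample 5 mainly in the type I subset (0.55 and 0.08).

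The wider pathway was followed in 139 other genes, of which 110 were measured. Of these, 21 rose, 4 fell and 85 did not pass, and the median log2 difference was 0.19. Over all genes tested, 9.23% rose and 5.03% fell. The share that rose was 27.8% in the sensing pathway and 25% in other type I induced genes. It was 12.5% in receptors and kinases, 12.5% in signal transducers and regulators and 10.7% in other genes induced by interferon gamma. These last shares lie near that over all genes, so their counts are no result about the lists. As with the members, a pathway gene could have entered the table through the group in which it was high, as Slfn9 did. None of the 11 interferon genes in the list was analysed here.

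Of 8 receptors and kinases, the chains of the interferon gamma receptor had differences of opposite sign. Ifngr1, the ligand-binding chain, read 2095, 2041, 1919 and 1948 in vehicle samples and 4161, 2589, 3752, 4014 and 3985 in oxaliplatin samples (log2 difference 0.87, SE 0.14, adjusted p = 0.00196). Ifngr2, the signalling chain, read 5190.3, 6740.3, 6092 and 5182 against 3658, 3376, 3840.1, 2292 and 5040.3 (-0.71, SE 0.19, adjusted p = 0.0241). Neither gene's groups overlapped, although oxaliplatin sample 5 came close to the vehicle samples in Ifngr2. The call of Ifngr2 was lost without vehicle 2 or vehicle 3 (adjusted p = 0.0739 to 0.0802), with the erythroid level as a covariate (0.184), without trend and robust moderation (0.0557) and without vehicle 1, oxaliplatin 2 and oxaliplatin 4 (0.0706). Il10rb, a chain of the interferon lambda receptor, and the kinase Jak1 differed by -0.28 (adjusted p = 0.185) and -0.21 (adjusted p = 0.19).

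Of 16 signal transducers and regulators, Stat3 rose by 0.55 (SE 0.12, adjusted p = 0.0103) and Irf8, a factor of myeloid cells, by 0.81 (SE 0.24, adjusted p = 0.0415). The phosphatases Ptpn11 and Ptpn6 had differences of 0.43 (adjusted p = 0.0814) and -0.62 (adjusted p = 0.154).

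Of 18 genes of the sensing pathway 5 rose and 1 fell. Ripk3 and Mlkl, the kinase and the pore-forming protein of necroptosis, rose by 1.70 (SE 0.36, adjusted p = 0.0106) and 1.60 (SE 0.26, adjusted p = 0.00237). Mlkl read 65.7, 45.8, 62.4 and 71.6 in vehicle samples and 226, 104, 253, 157 and 232 in oxaliplatin samples, without overlap. Sting1, which relays the sensing of cytosolic DNA, rose by 0.62 (SE 0.16, adjusted p = 0.0238). The endosomal RNA receptor Tlr3 rose by 0.68 (SE 0.21, adjusted p = 0.0471), and the adaptor Myd88 by 0.40 (SE 0.12, adjusted p = 0.0380). Among the 9 fits that left out 1 sample, Tlr3 passed in 2 and Myd88 in 1. Rnaseh2c, a subunit of the enzyme that removes RNA from DNA hybrids, fell by 0.50 (SE 0.16, adjusted p = 0.0494). Samhd1, which lowers nucleotide pools, and the kinase Tbk1 differed by -0.33 (adjusted p = 0.0679) and 0.30 (adjusted p = 0.109).

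Of 40 other type I induced genes 10 rose and 1 fell. Lgals3bp, a secreted glycoprotein that binds galectins, read 1229, 893, 1052 and 1459 in vehicle samples and 3967, 1731, 3916, 3841 and 4133 in oxaliplatin samples, a difference of 1.56 (SE 0.25, adjusted p = 0.00333). The galectin Lgals9 rose by 1.15 (SE 0.21, adjusted p = 0.00450). In both, all oxaliplatin samples lay above the vehicle samples, with sample 2 the nearest to them. Oasl1, which represses translation of Irf7, rose by 1.43 (SE 0.36, adjusted p = 0.0177), Casp8, the caspase that starts apoptosis at death receptors, by 1.11 (SE 0.18, adjusted p = 0.00213), and Ifi211 by 0.99 (SE 0.22, adjusted p = 0.0110). Slfn9 rose by 1.37, Herc6, which joins Isg15 to proteins in mice, by 0.74, Sp140 by 0.61, and Slfn5 and Tor3a by 0.47 each, with adjusted p from 0.0157 to 0.0492. The vehicle values of Slfn9 all lay below 40.6, the lowest maximum of any row. It is thus in the table only through oxaliplatin samples, which favours a rise. Nampt, an enzyme of NAD synthesis, fell by 0.45 (SE 0.11, adjusted p = 0.0164). Phf11d and Pml, a nuclear body protein, differed by 0.53 (adjusted p = 0.0604) and 0.56 (adjusted p = 0.0635).

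Of 28 other genes induced by interferon gamma 3 rose (10.7%) and 1 fell, near the 9.23% and 5.03% of all genes tested. Icam1, an adhesion molecule for leukocytes, rose by 1.15 (SE 0.27, adjusted p = 0.0197), Gbp10 by 1.18 (SE 0.37, adjusted p = 0.0482), and the inflammatory caspase Casp4 by 1.06 (SE 0.23, adjusted p = 0.00942). Nos2, the inducible nitric oxide synthase and a classical interferon gamma target in macrophages, read 317, 336, 268 and 333 in vehicle samples and 78.9, 205, 152, 95.9 and 70.8 in oxaliplatin samples. All oxaliplatin samples lay below all vehicle samples, a difference of -1.49 (SE 0.28, adjusted p = 0.00471). Tap1, which feeds peptides to MHC class I, and Gbp6 differed by 0.57 (adjusted p = 0.0666) and 0.64 (adjusted p = 0.137). Of the 25 pathway genes that passed, Ifngr1, Stat3, Ripk3, Mlkl, Oasl1, Lgals3bp, Lgals9, Ifi211, Casp8, Nos2 and Casp4 passed in all 9 fits that left out 1 sample. Slfn9 and Nampt passed in 8 of these fits, Ifngr2 in 7, Icam1 in 6 and Sting1 in 4. The calls of the rest were weak: Slfn5, Tor3a and Gbp10 passed in 3, Irf8, Tlr3, Herc6 and Rnaseh2c in 2, and Myd88 and Sp140 in 1. With the erythroid level as a covariate 14 of the 25 lost their calls, among them Stat3 (adjusted p = 0.0835) and Casp4 (0.0884). Rises counted 11 without vehicle 2, 12 without oxaliplatin 3 or oxaliplatin 5, 13 without vehicle 1, and 14 to 22 in the other fits.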

How the data were processed

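RNA was sequenced from heart tissue, 5 oxaliplatin and 4 vehicle samples, using a SMARTer library kit, per the labels' protocols. The authors deposited 1 table of a signal per gene and sample, normalized counts per the file headers. The submitters' processing notes list STAR 2.5.1a, Partek and DESeq2 and do not say what each did. The sources used here give no genome build, annotation or strand setting, so a gene and its overlapping, antisense or near-identical partner may share reads. A sample summed to 29.4 M to 36.9 M. Per sample, 73.1% to 75.9% of values between 1 and 1000 estimated reads lay within 0.02 of a whole read, too few to recover reads for a count test, and the test was made on log values.

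Groups, taken from the titles, entered a two-sided limma fit (version 3.58.1, R 4.3.3; trend and robust moderation on) of log2(normalized count + 1), which understates changes of low genes. It covered the 13788 genes whose mean reached 10. P-values were adjusted by Benjamini-Hochberg over all of them. All 45 measured members passed that filter. Members that passed, and the member of smallest p in each role group, are given in every sample; of other pathway genes, those that passed and the 2 of smallest p per list among the rest are named. Members printed in every sample beyond that rule (Isg15, Rsad2, Igtp and Irgm2) were chosen after their values were seen. Members and lists were chosen with earlier results of these data known. Symbols were matched exactly, and Sting1 is listed under its older name Tmem173 in the gene list used. A marker level is the mean or sum over the list's genes. Shared 50-base stretches were counted in GENCODE M21 transcripts, which may not be the annotation the authors used. Promoters are RefSeq windows on GRCm38.p6. Only the limma fit was tested on simulated data, in which genes varied independently of one another. Alternatives changed the pseudocount, filter, scaling, moderation, weights, covariates, threshold and samples.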

Additional observations from a re-analysis of the deposited data

Results flagged for a closer look

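Among the 90 sets of values examined (45 members in each of 2 groups), 4 held a sample set apart from the rest of its group by a gap that took up most of the group's range. With independent, normally distributed values, such a sample is set apart in about 1 in 20 groups. The 90 sets come from related genes in the same 9 samples and are not independent, so the count of 4 was not tested against chance.

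Ddx58 was high in oxaliplatin sample 3, at 455 normalized counts against 299 in the next sample. Oas2 was high in the same sample, at 257 against 168. Eif2ak2 was high in vehicle sample 3, at 231 against 196, and Irgm1 was low in vehicle sample 4, at 577 against 675. The 2 values in oxaliplatin sample 3 belong to the sample that was the highest in 33 of 45 members.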

How the results depend on the processing

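No alternative called a member lower. Counts of members that rose were 15 with a pseudocount of 10 or 0.1, no filter, a mean of at least 100, equal totals, quantile normalization or the macrophage level as a covariate. They were 10 without trend and robust moderation, 29 with array weights, 13 with the erythroid level as a covariate and 19 at an adjusted p under 0.1. They were 12 without the 3 samples of highest atrial marker level (vehicle 1, oxaliplatin 2 and oxaliplatin 4). Leaving out 1 sample gave 7 to 16. The cause of these shifts was not tested. Members' median differences ran from 0.36 to 0.50 when 1 sample was left out, from 0.61 to 0.90 in the type I and from 0.25 to 0.44 in the interferon gamma subset.

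Over all genes, 1272 rose and 694 fell, against 1633 and 269 with equal totals, which moved the median difference of all genes from -0.02 to 0.11, and 1151 and 965 with quantile normalization. Array weights gave 1975 and 1566, the erythroid level 764 and 224, the macrophage level 1049 falls, and an adjusted p under 0.1 gave 1185 falls. Leaving out 1 sample gave 789 to 1508 rises and 321 to 880 falls. Of other pathway genes, 21 rose and 4 fell; array weights gave 32 and 7, the erythroid level 12 and 1, the macrophage level 7 falls, no trend and robust moderation 2 falls, and leaving out the high atrial samples 1 fall. Leaving out 1 sample gave 11 to 22 rises and 1 to 6 falls.

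With the endothelial level as a covariate, added once the data had been seen, 1 gene rose and 0 fell over all genes, and 0 members and 0 other pathway genes passed. The difference of Irf7 became -0.51 (adjusted p = 0.722) and that of Ly6e -0.57 (adjusted p = 0.474), and the interferon gamma median became 0.78. That level separates the groups, so this fit can hardly estimate a difference between them.

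Replicate numbers are shared between groups, and the labels do not say that they pair the samples. Same-numbered samples correlated by -0.27, -0.06, -0.09 and 0.25 in their deviations from the group means. No value for paired samples was at hand to compare, so these correlations cannot decide whether the numbers pair samples. With the replicate number as a block, 12 members rose, without Ifit2, Oasl2 and Ly6e, 925 genes rose and 488 fell over all genes, and 14 other pathway genes rose and 4 fell.

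Depth is known only as an estimate, and genes of low value are absent from the table, so weakly expressed interferon genes could not be examined.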
